A study of Mus musculus with 6 samples.

Results

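The 10 genes described here encode the insulin-like growth factor (IGF) binding proteins Igfbp2 to Igfbp7, the ligand Igf1, and the receptors Igf1r, Igf2r and Insr. They were taken by name, and each was found among the 55416 genes counted in these libraries. They were selected on measured values: their raw counts and levels by library, and their difference between the genotypes with and without cKO replicate 2, were known when the list was drawn up. Those values are therefore given as a description, with no p for any of the 10, and counts of members past a threshold stand only beside the share of all genes past it.

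The study measured gene expression in oligodendrocyte precursor cells, the dividing progenitors of myelin-forming cells, taken from mouse cortex at postnatal day 11. The 3 conditional knockout samples (cKO) had the genotype Pdgfra-Cre:Ift88 fl/fl; RosaEYFP, and the 3 control samples had the genotype Pdgfra-Cre:Ift88 fl/wt; RosaEYFP. Both groups thus carried a Cre driven by the Pdgfra promoter, a Cre reporter and at least 1 floxed copy of Ift88, a gene needed to build the primary cilium. Each sample pooled the cells of 4 to 6 mice, so the spread between samples is a spread between pools.

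IGF1 and IGF2 are secreted growth factors that act through the receptor tyrosine kinase IGF1R, and insulin acts through the related kinase INSR. In the developing brain IGF1 is known to promote the survival and growth of oligodendrocyte precursors and the making of myelin. The binding proteins IGFBP2 to IGFBP6 hold IGFs with high affinity outside the cell, which can block or prolong their action, whereas IGFBP7 binds IGFs only weakly. IGF2R has no kinase; it takes up IGF2 for breakdown and carries lysosomal enzymes that bear mannose 6-phosphate.

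The promoters of 3 of these genes are shown because Igfbp2, Igfbp4 and Igf2r were the members whose control and cKO libraries did not overlap in level. Each run is the 250 bases before the annotated start, 5′ to 3′ on the strand of the gene, from RefSeq on GRCm38.p6. The count files use another build, GRCm39, where Igfbp2 lies on chromosome 1 from 72863662 to 72891633, Igfbp4 on chromosome 11 from 98932070 to 98945218 and Igf2r on chromosome 17 from 12901293 to 12988551. Capitals mark TATAAA (the TATA box), GGGCGG (the GC box), CACGTG (an E-box) and TGACG (the core of the cAMP response element, CRE, bound by CREB), each searched on both strands. Igfbp2 (1 of 2 annotated starts) is read from chr1:72824230-72824479, Igfbp4 from chr11:99040994-99041243, both on the plus strand, and Igf2r from chr17:12769707-12769956 on the minus strand.
Igfbp2: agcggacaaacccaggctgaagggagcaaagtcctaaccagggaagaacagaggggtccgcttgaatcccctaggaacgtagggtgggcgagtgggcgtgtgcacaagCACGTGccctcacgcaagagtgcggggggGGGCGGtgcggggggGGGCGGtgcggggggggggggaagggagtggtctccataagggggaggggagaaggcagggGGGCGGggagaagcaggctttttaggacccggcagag
Igfbp4: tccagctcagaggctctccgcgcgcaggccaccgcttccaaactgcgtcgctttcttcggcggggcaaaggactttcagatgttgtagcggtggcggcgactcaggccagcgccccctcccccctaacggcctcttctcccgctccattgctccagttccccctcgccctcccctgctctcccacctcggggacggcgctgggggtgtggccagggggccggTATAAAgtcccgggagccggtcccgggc
Igf2r: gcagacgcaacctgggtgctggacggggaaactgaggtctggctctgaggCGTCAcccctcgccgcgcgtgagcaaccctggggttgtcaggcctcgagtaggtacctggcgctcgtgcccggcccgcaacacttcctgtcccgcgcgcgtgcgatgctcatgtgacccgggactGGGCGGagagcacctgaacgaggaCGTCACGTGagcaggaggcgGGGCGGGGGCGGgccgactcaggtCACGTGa

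A TATA box lay 28 bases before the start of Igfbp4 in its forward orientation, and 12.4% of 32851 mouse promoter windows of the same length held that motif on either strand. Igf2r held 2 E-boxes (6.02% of windows held at least 1) and 2 matches to the CRE core (17.8% of windows), and the core that begins 51 bases before the start overlaps the E-box that begins 48 bases before it. Igfbp2 held 1 E-box and 3 GC boxes, and 32.7% of windows held a GC box. The full CRE, TGACGTCA, is in none of the promoter windows of the 9 genes with an entry (Igfbp2 to Igfbp7, Igf1, Igf1r and Igf2r) and in 1.55% of all windows. These are matches of letters and not sites shown to be used.

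In 5 libraries the total count was 11773548 to 13909236, and in cKO replicate 2 it was 568509. The 5 deeper libraries held 14047 to 16252 genes with a count, and the shallow one held 3651. Levels are given as CPM, counts scaled to the library total. A gene without a read could still be as high as 0.255 CPM in the deeper libraries and 5.28 CPM in cKO replicate 2 (3 counts). These limits and all intervals below cover counting error only. Ift88 itself drew 143, 32 and 167 reads in control replicates 1 to 3 and 1, 0 and 305 reads in cKO replicates 1 to 3, and because the reads are tags near the 3′ end, which can lie outside the floxed part, this does not check the genotypes. Of 12 markers of oligodendrocyte precursors, Sox10, Tnr and Pcdh15 had no count in any library and 3 had at least 20 counts in each deeper library. Their summed level was 234 to 487 CPM in the control group and 7.04 to 225 CPM in the cKO group. C1ql1, at 92.0, 297 and 134.5 CPM against 20.3, 1.76 and 29.1 CPM, carried that gap: the other 11 genes summed to 248, 191 and 99.9 CPM against 204, 5.28 and 193 CPM, and the deeper cKO libraries lay among the controls. The 5 markers tested had a median log2 fold change of 0.11, or 0.68 over the 7 tested without cKO replicate 2. The part of these markers in the levels below was not tested.

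Igfbp2, the most abundant of the 10 genes in the deeper libraries, was lower in every cKO library than in any control when scaled to total counts. Control replicates 1 to 3 gave it 14890, 18706 and 22338 reads, and cKO replicates 1 to 3 gave it 11234, 287 and 10083. This was 1091, 1466 and 1646 CPM against 808, 505 and 856 CPM. The group means were 1401 ± 284 CPM and 723 ± 190.5 CPM (SD, n = 3 each), a ratio of 0.516, or 0.594 without cKO replicate 2. The lowest control was 1.27 times the highest cKO library. Its log2 fold change, cKO over control, was -0.97 (SE 0.65) with all libraries and -0.73 (SE 0.25) without cKO replicate 2. Over all 12833 genes tested the median log2 fold change was -0.44, and it was -0.06 without that library.

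How the shallow library was scaled moved the result for Igfbp2. Under RLE scaling cKO replicate 2 was at 1160 CPM, the groups overlapped and the log2 fold change was -0.42 (SE 1.10). Under upper-quartile scaling cKO replicate 2 was at 10090 CPM, the groups overlapped and the log2 fold change became 2.21. The upper-quartile factor was 1.68 to 1.92 for the deeper libraries and 0.051 for cKO replicate 2. Without that library the log2 fold change was -0.72 under RLE and -0.83 under upper-quartile scaling, and the other cKO libraries lay below every control under all 4 scalings.

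**Figure D1:**
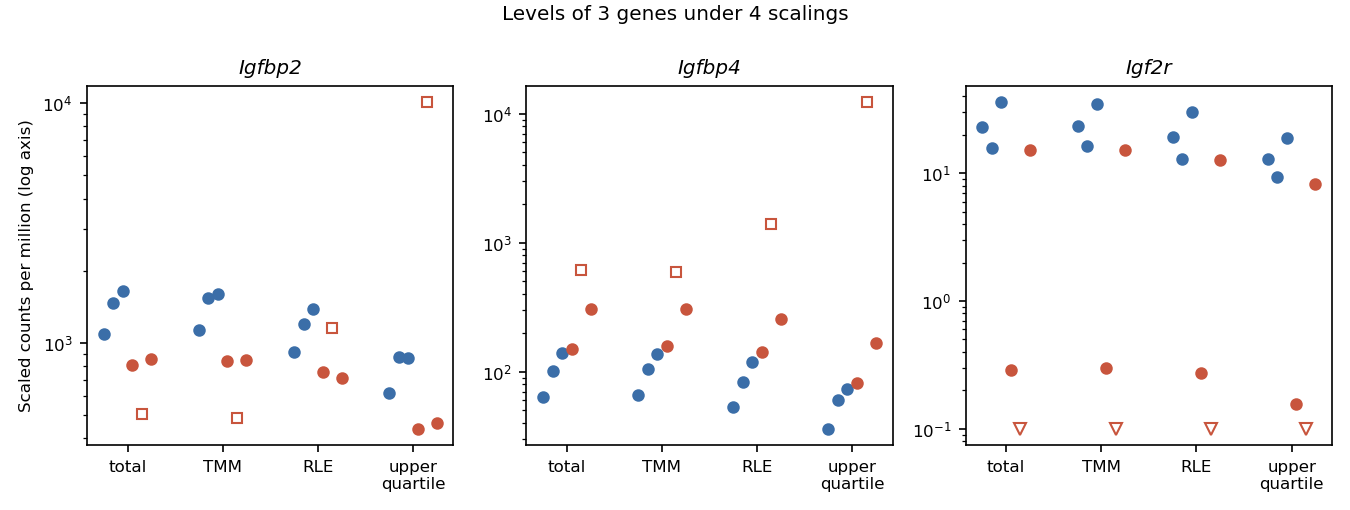
Levels of Igfbp2, Igfbp4 and Igf2r in CPM (log axis) under 4 ways of scaling the libraries; blue circles are the 3 controls, red circles cKO replicates 1 and 3, the open square cKO replicate 2, and a triangle at 0.1 stands for 0 counts. The open square of Igfbp2 moves from 505 under total counts to 10090 under upper-quartile scaling, while cKO replicates 1 and 3 stay below the controls.

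Igfbp4, a binding protein that the protease PAPP-A cleaves to set IGF free, went the other way and was higher in every cKO library than in any control. It drew 866, 1280 and 1898 reads in the control pools and 2098, 348 and 3619 in the cKO pools. In CPM these were 63.4, 100.3 and 139.9 against 151, 612 and 307. The level in cKO replicate 2 was 1.99 times the highest of the deeper libraries. Among 2081 genes with a mean of at least 100 CPM in the deeper libraries, 235, with Igfbp4 among them, reached that ratio or more. The means were 101.2 ± 38.2 CPM and 357 ± 235 CPM (SD, n = 3 each), a ratio of 3.52, or 2.26 without cKO replicate 2. The groups came close to each other: the highest control had a 95% Poisson interval of 134 to 146 CPM and the lowest cKO library of 144 to 157 CPM. Its log2 fold change was 1.78 (SE 1.34) in all libraries and 1.19 (SE 0.43) without cKO replicate 2. It was above 0 under all 15 alternatives run, from 1.11 to 6.20. The highest came from upper-quartile scaling of all libraries, with its low factor for cKO replicate 2.

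**Figure D2:**
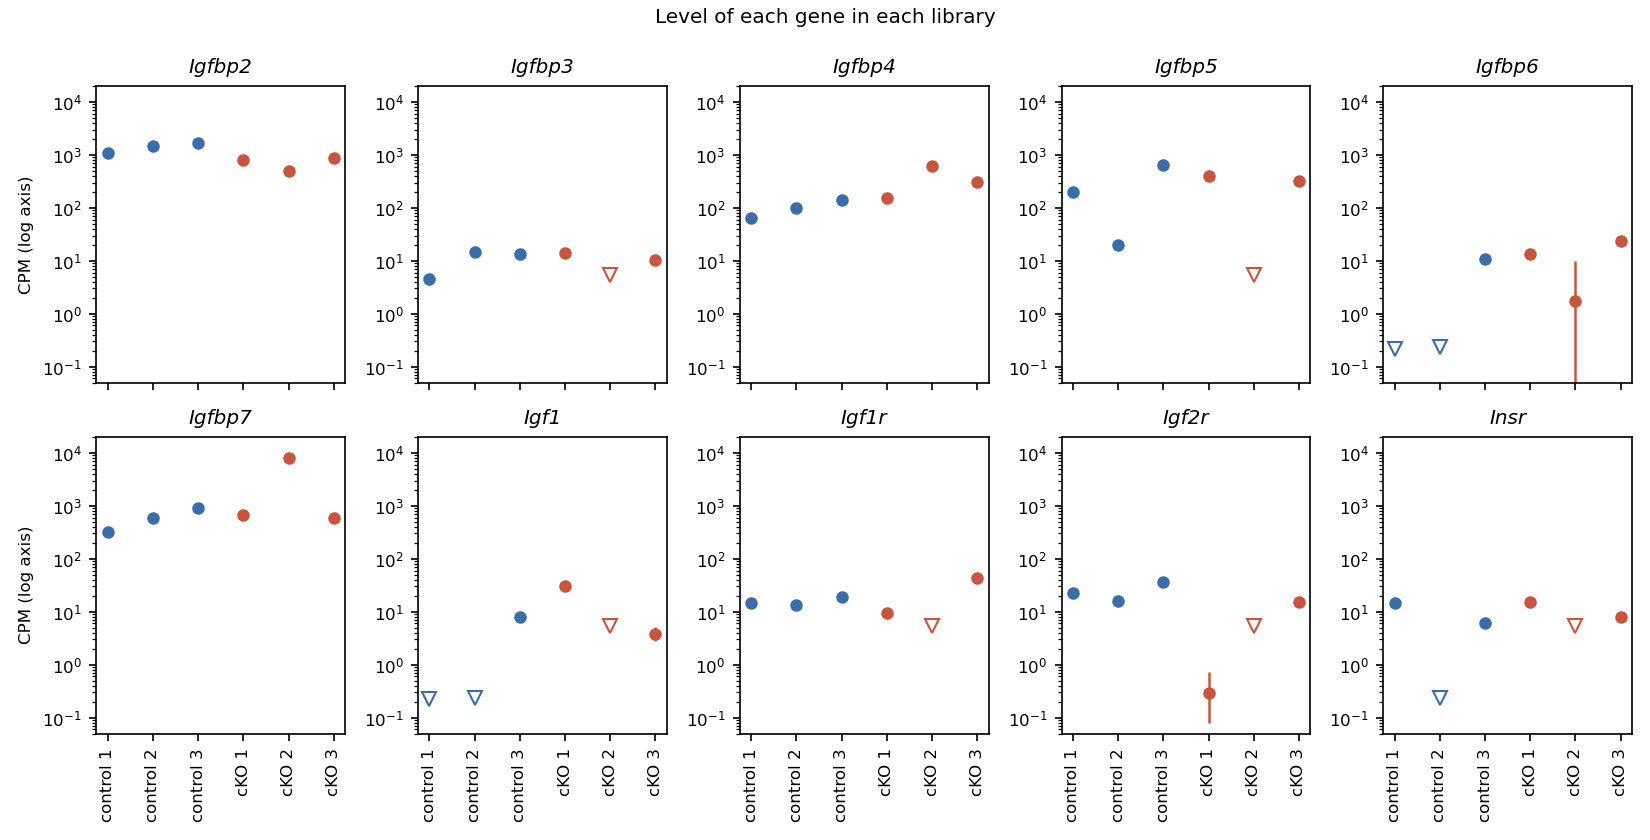
Level of each of the 10 genes in CPM (log axis) in the 3 control libraries (blue) and the 3 cKO libraries (red), with 95% Poisson intervals and with open triangles at the limit that 0 counts allow. Igfbp2 is lower (on this total-count scale, not under RLE or upper-quartile scaling) and Igfbp4 higher in all cKO libraries, and Igfbp7 reaches 7884 CPM in cKO replicate 2.

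Igfbp7, a binding protein known from blood vessels, stood apart in a single library. It drew 4424, 7657 and 12497 reads in control replicates 1 to 3 and 9145, 4482 and 7019 reads in cKO replicates 1 to 3, or 324, 600 and 921 CPM against 657, 7884 and 596 CPM. In cKO replicate 2 it ranked 5 among all genes and took 0.788% of the library, with an exact 95% Poisson interval of 7655 to 8118 CPM. That level was 8.56 times the highest of the deeper libraries. Among 2081 genes with a mean of at least 100 CPM in the deeper libraries, 6, with Igfbp7 among them, reached that ratio or more in cKO replicate 2. The 2 remaining cKO libraries lay within the range of the controls, and their mean of 627 CPM compares with 615 ± 299 CPM (SD, n = 3) in the controls. For Igfbp7 the log2 fold change was 2.25 (SE 0.54) with cKO replicate 2 and 0.06 (SE 0.40) without it. With all libraries it was 0.17 (SE 0.29) by limma-voom and 7.26 (SE 3.88) under upper-quartile scaling.

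Of the last 500 exon bases of Igfbp7 (chromosome 5, 77497087 to 77555888 on GRCm39, minus strand), 17% are shared with the gene Polr2b on the opposite strand, which encodes a subunit of RNA polymerase II. Polr2b had 0 counts in cKO replicate 2 and 1556 to 4411 counts in the deeper libraries. Exons of the other 9 genes share no base with another annotated gene.

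Choroid plexus markers also stood apart in cKO replicate 2. They summed to 48122 CPM there, of which Ttr, the gene of the thyroid hormone carrier transthyretin, made up 45945 CPM, and 4 of the 10 markers had at least 20 counts. Their sums were 126 to 359 CPM among controls and 590 and 876 CPM for cKO replicates 1 and 3, and Kl had no count anywhere. Ttr alone was at 25.1, 7.37 and 0.147 CPM in control replicates 1 to 3. It was at 376 and 574 CPM in cKO replicates 1 and 3, so these sums do not show that the other markers differed. Endothelial markers had no read in cKO replicate 2, whose limit is 5.28 CPM for a gene by counting error alone. They summed to 2.12 to 55.5 CPM among controls and to 22.1 and 84.3 CPM for the other cKO libraries. Of these markers, 6 of 10 (Cdh5, Flt1, Ly6c1, Slco1a4, Emcn and Esam) were at 0 counts in all libraries. Mural cell markers summed to 957 to 3095 CPM in controls and 1020 to 1462 CPM in cKO libraries (Vtn at 0), and leptomeningeal and fibroblast markers to 973 to 2597 and 763 to 4443 CPM. Astrocyte markers summed to 680 to 1119 CPM in controls and 651 to 785 CPM in cKO libraries (Gjb6 at 0), where Slc1a3 alone made up the 682 CPM of cKO replicate 2. Oligodendrocyte markers summed to 94.6 to 567 and 208 to 588 CPM (Mog, Mag, Mobp, Ermn and Opalin at 0), and neuronal markers to 1684 to 5903 and 2158 to 6148 CPM. Groups without overlap were found for 5 of 8 tested astrocyte markers on the lower side and 1 on the higher, for 1 of 8 neuronal markers on each side, for 2 of 5 choroid plexus markers on the higher side and for 1 of 5 precursor markers on the lower, where all genes tested gave 11.1% lower and 1.33% higher. The part of these cell types in the levels of Igfbp2, Igfbp4 and Igfbp7 was not tested, and in pooled cells fewer cells of a type and less RNA per cell cannot be told apart.

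Igfbp5, whose protein binds IGFs and extracellular matrix, was the most uneven of the 4 abundant binding proteins among controls. It drew 2729, 253 and 8600 reads in control replicates 1 to 3 and 5578, 0 and 3739 reads in cKO replicates 1 to 3, or 199.9, 19.8 and 634 CPM against 401, 0 and 318 CPM. The highest control was 32.0 times the lowest, where the median of this ratio was 1.66 over 2080 genes with a mean of at least 100 CPM and a count in each control. Only 9 of those 2080 genes had a larger ratio. Both deeper cKO libraries lay inside the range of the controls. The 0 in cKO replicate 2 was shared by 628 of all 2081 genes with a mean of at least 100 CPM in the deeper libraries. For Igfbp5 the log2 fold change was -0.20 (SE 1.22), and 0.40 (SE 1.02) without cKO replicate 2. Igfbp5 and Igfbp2 are neighbours on chromosome 1 with their 3′ ends facing each other, 5457 bases apart (GRCm39), and they did not share a pattern: control replicate 2 was low for Igfbp5 and not for Igfbp2.

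Igfbp3, the main carrier of IGFs in blood, was low in every library. It drew 61, 190 and 179 reads in control replicates 1 to 3 and 192, 0 and 121 reads in cKO replicates 1 to 3, or 10.9 ± 5.59 CPM against 8.03 ± 7.17 CPM (SD, n = 3 each). The groups overlapped, and the log2 fold change of -0.39 (SE 2.12) became 0.18 (SE 1.36) without cKO replicate 2.

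Igfbp6, which prefers IGF2 over IGF1, was detected in only 1 control. It drew 0, 0 and 147 reads in control replicates 1 to 3 and 188, 1 and 279 reads in cKO replicates 1 to 3, or 10.8 CPM in control replicate 3 against 13.5, 1.76 and 23.7 CPM. With cKO replicate 2 the groups overlapped, and without it both cKO libraries were above the controls. Its log2 fold change was 1.91 (SE 2.30). It was 5.68 (SE 2.39) by limma-voom and 10.09 (SE 4.40) without control replicate 3, which leaves controls without a read, so that the fitted size then depends on the prior count.

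Because the make-up of the binding protein counts within a library does not depend on scaling between libraries, it was followed as a share. Igfbp2 made up 64.8%, 66.6% and 48.9% of the summed Igfbp2 to Igfbp7 counts of control replicates 1 to 3, and 39.5%, 5.61% and 40.6% of those of cKO replicates 1 to 3. Its mean share was 60.1 ± 9.73% against 28.6 ± 19.9% (SD, n = 3 each), or 40.03% without cKO replicate 2. Igfbp4 made up 3.77%, 4.56% and 4.16% of the control pools against 7.38%, 6.80% and 14.6% of the cKO pools, with means of 4.16 ± 0.394% and 9.58 ± 4.32%. Neither share overlapped between the groups. Shares of a library are parts of a whole, so a lower share of a gene raises others and they are not separate results. How often shares of other genes fail to overlap was not worked out.

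Igfbp7 made up 19.3%, 27.3% and 27.4% of the controls' binding protein counts and 32.2%, 87.6% and 28.2% of those in the cKO libraries. This share did not overlap either, by 27.4% against 28.2% at the nearest libraries, while the CPM of Igfbp7 did overlap. The share of Igfbp5 ran from 0.901% to 18.8% among controls and from 0% to 19.6% among cKO pools. Igfbp3 made up at most 0.676% of any library. Igfbp6 made up at most 0.322% of the controls and 0.661% and 1.12% of cKO replicates 1 and 3.

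**Figure D3:**
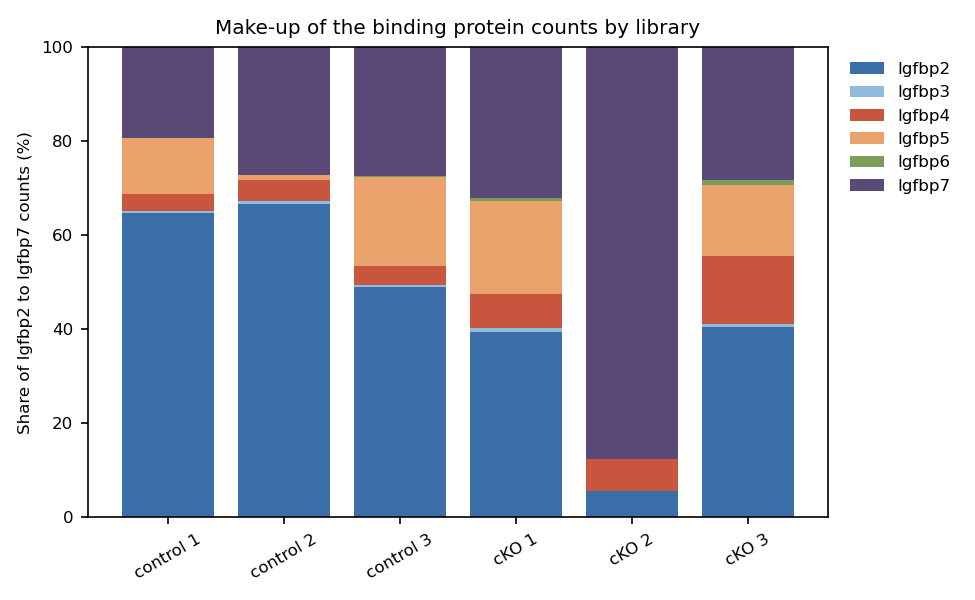
Stacked bars give the share (%) of each binding protein gene in the summed Igfbp2 to Igfbp7 counts of each library. The Igfbp2 share is 48.9% to 66.6% in the 3 controls and at most 40.6% in the cKO libraries, and Igfbp7 takes 87.6% of cKO replicate 2.

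The ratio of Igfbp2 to Igfbp4 counts was 17.2, 14.6 and 11.8 for the control pools against 5.35, 0.825 and 2.79 for the cKO pools. The lowest control ratio therefore stood above the highest cKO ratio with or without the shallow library. Igfbp2 over Igfbp7 gave 3.37, 2.44 and 1.79 against 1.23, 0.0640 and 1.44, again without overlap. Both ratios were chosen after the values had been seen. Summed over the 6 genes, the binding proteins were at 1683, 2202 and 3365 CPM in control replicates 1 to 3 and 2044, 9002 and 2112 CPM in cKO replicates 1 to 3, and these groups overlapped.

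**Figure D4:**
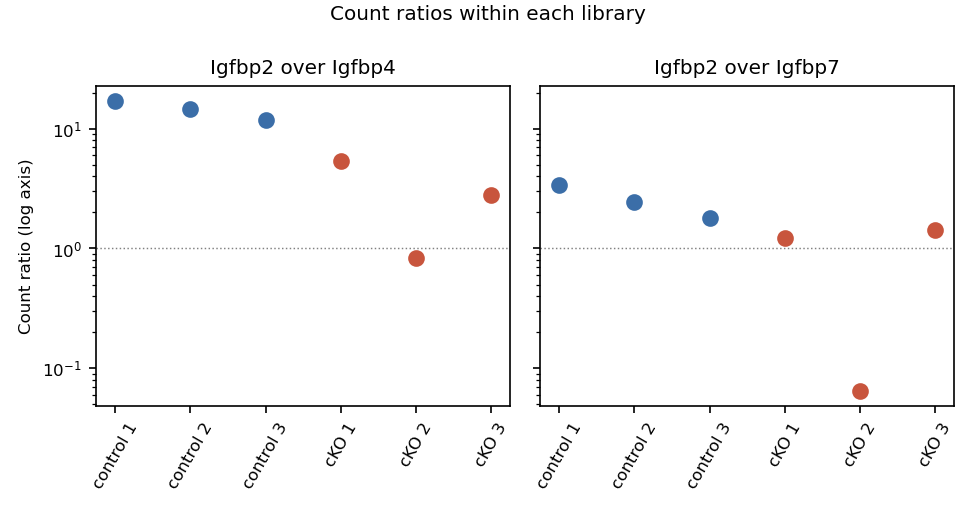
Count ratios of Igfbp2 over Igfbp4 (left) and of Igfbp2 over Igfbp7 (right) on a log axis in each library, blue for control and red for cKO; the dotted line marks equal counts. All 3 controls lie above all cKO libraries in both panels.

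Igf1, the ligand of IGF1R, was detected in 3 of the 6 libraries. It drew 0, 0 and 108 reads in control replicates 1 to 3 and 424, 0 and 45 reads in cKO replicates 1 to 3, or 7.96 CPM in control replicate 3 and 30.5 and 3.82 CPM in cKO replicates 1 and 3. The groups overlapped, and the log2 fold change of 2.22 (SE 2.42) became -0.32 without cKO replicate 1, the library with most of the counts. Igf2, the second ligand, was also sparse, with 0, 34 and 61 reads from the control pools against 18, 0 and 1 from the cKO pools. Microglia are a known source of IGF1 in brain, and 6 of 10 microglial markers (Aif1, Cx3cr1, Tmem119, C1qa, Itgam and Trem2) had no count in any library. P2ry12 had 38 counts in cKO replicate 3 and 0 elsewhere. The part of microglia in the Igf1 level was not tested.

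Igf2r, the receptor for IGF2 and for mannose 6-phosphate, was lower in the cKO libraries by a narrow gap. It drew 312, 201 and 488 reads in control replicates 1 to 3 and 4, 0 and 179 reads in cKO replicates 1 to 3, which is 22.9, 15.8 and 36.0 CPM against 0.288, 0 and 15.2 CPM. The means were 24.9 ± 10.3 CPM and 5.16 ± 8.70 CPM (SD, n = 3 each), a ratio of 0.208, or 0.312 without cKO replicate 2. The lowest control was 1.04 times cKO replicate 3, and their 95% Poisson intervals, 13.7 to 18.1 and 13.1 to 17.6 CPM, overlapped. The gap to cKO replicate 1 was wide by comparison, with 4 counts in a library of 13909236. For Igf2r the log2 fold change was -2.22 (SE 1.94), and it was -1.69 (SE 1.51) without cKO replicate 2 and -6.63 without cKO replicate 3. It was below 0 under all 15 alternatives.

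Igf1r, the signalling receptor for both IGFs, was even among the controls and uneven among the cKO libraries. It drew 200, 173 and 261 reads in control replicates 1 to 3 and 133, 0 and 503 reads in cKO replicates 1 to 3, or 14.6, 13.6 and 19.2 CPM against 9.56, 0 and 42.7 CPM. The cKO libraries thus lay on both sides of the controls. The log2 fold change was 0.15 (SE 1.82), 0.72 (SE 0.93) without cKO replicate 2 and -1.57 without cKO replicate 3.

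Insr, the insulin receptor, was missing from a deep control as well as from the shallow library. It drew 197, 0 and 84 reads in control replicates 1 to 3 and 208, 0 and 93 reads in cKO replicates 1 to 3, or 14.4, 0 and 6.19 CPM against 15.0, 0 and 7.90 CPM. The detected libraries of the groups were alike in level, and the log2 fold change was 0.20 (SE 2.30). Its sign changed without control replicate 2 (-0.40) and without cKO replicate 1 (-0.74).

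Gaps of this kind were common at the level of these receptors. Of 6005 genes with a mean of 5 to 30 CPM in the deeper libraries, 35.9% had 0 counts in at least 1 of those libraries, against 0.0961% of the 2081 genes at 100 CPM or more. In cKO replicate 2, 88.5% of the 6005 genes and 30.2% of the 2081 had no count. A library without a read of Igf1, Igf1r, Igf2r, Insr, Igfbp3 or Igfbp6 was thus shared with many genes of that level.

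All 10 genes passed the filter on low counts, and 0 of 10 passed the test for a difference between genotypes, where 0.0156% of 12833 genes did, 0.00779% higher and 0.00779% lower (quasi-likelihood test of edgeR, Benjamini-Hochberg adjusted, threshold 0.05). At an unadjusted p under 0.05 it was 1 of 10, where 2.83% of all genes were, and DESeq2 and limma-voom also called 0. Without cKO replicate 2 it was again 0 of 10, against 0.00687% of 14562 genes. In 3 of 10 genes the CPM of the groups did not overlap, which held for 12.5% of all genes tested: Igfbp4 was higher (1.33% of all genes) and Igfbp2 and Igf2r were lower (11.1%). Without cKO replicate 2 there were 4 of 10, with Igfbp6 added on the higher side, against 25.5% of all genes (13% higher and 12.6% lower). Since these genes were proposed with this comparison in view, nothing is read from these counts.

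**Figure D5:**
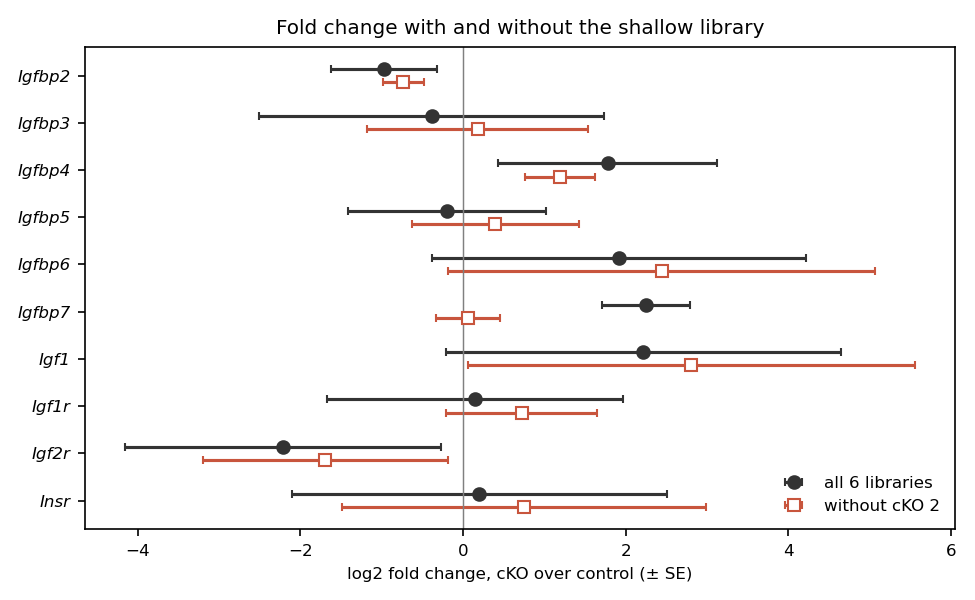
Log2 fold change, cKO over control, of each gene with its standard error, from all 6 libraries (filled circles) and without cKO replicate 2 (open squares). Igfbp7 moves from 2.25 to 0.06 when that library is left out, and only Igfbp3 and Igfbp5 change sign.

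Ordered by mean level over the 5 deeper libraries, the 4 abundant binding proteins came before the other 6 genes. The gap was narrowest in control replicate 2, where Igfbp5 was at 19.8 CPM (95% Poisson interval 17.5 to 22.4) and Igf2r at 15.8 CPM (13.7 to 18.1). Those intervals overlapped. Tag counts come from 1 end of a transcript and do not grow with its length, so CPM is set side by side between genes here. What the bases that Igfbp7 shares with Polr2b do to its count was not tested. Igfbp2 averaged 1174 ± 371 CPM, Igfbp7 620 ± 212, Igfbp5 314 ± 229 and Igfbp4 152 ± 93.3 (SD over the 5 deeper libraries of both groups). Igfbp2 exceeded Igfbp7, Igfbp7 exceeded Igfbp5 and Igfbp4 exceeded Igf1r in 5 of 5 libraries, while Igfbp5 exceeded Igfbp4 in 4 of 5, a difference smaller than the SD of Igfbp5. The rest averaged 19.9 ± 13.2 CPM for Igf1r, 18.0 ± 13.0 for Igf2r, 11.3 ± 4.20 for Igfbp3, 9.61 ± 9.999 for Igfbp6, 8.69 ± 6.22 for Insr and 8.45 ± 12.7 for Igf1. Neighbours among these 6 differed by less than their spread. Summed binding protein counts were 32.1 to 82.4 times the summed receptor counts in the deeper libraries.

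Igf2r made up 44.0% to 58.6% of the counts of the 3 receptors in the controls and 1.16% and 23.1% in cKO replicates 1 and 3. Igf1r made up 28.2% to 46.3% in controls and 38.6% and 64.9% in those cKO libraries, and Insr 0% to 27.8% in controls and 60.3% and 12% in those cKO libraries.

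The other genes of the pathway were followed as 9 lists with 98 genes, of which 78 could be tested and 0 passed in either direction (edgeR's quasi-likelihood test, all 6 libraries), with 2 at an unadjusted p under 0.05 (2.83% of all genes). DESeq2 and limma-voom also called 0 of them, and without cKO replicate 2 it was 0 of 83, with 9 at an unadjusted p under 0.05 (6.09% of all genes). Their median log2 fold change was -0.44 beside -0.44 over all genes tested, and -0.03 beside -0.06 without cKO replicate 2. The common dispersion of the edgeR fit to all 6 libraries, which measures spread within the groups, was 1.79 (median over genes 1.55). With that spread and 3 libraries per group, 0 genes passing does not show that levels were alike. Non-overlapping groups were found for 3 genes on the higher side (3.85% of 78, where all genes gave 1.33%) and for 7 on the lower side (8.97%, where all genes gave 11.1%).

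Among the remaining ligands and carriers, 5 of 7 (Ins1, Ins2, Igfals, Igfbp1 and Insrr) had no count in any library. Igfbpl1, a relative of the binding proteins seen in immature neurons, drew 336, 116 and 248 reads in control replicates 1 to 3 and 253, 0 and 1714 reads in cKO replicates 1 to 3. Of 10 genes of proteases that cleave binding proteins and of their inhibitors, 0 of 7 tested passed. Htra1, a protease that cleaves IGFBP5, was at 183 ± 98.1 CPM in controls and 346 ± 123 CPM in cKO libraries (SD, n = 3 each), and the membrane protease gene Adam9 at 287 ± 147 and 118 ± 91.5 CPM. Mmp14, another membrane protease gene, drew 285, 626 and 1309 reads against 790, 273 and 452.

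Of 9 relatives with an IGFBP-type domain, 0 of 4 tested passed. Ccn1, a matrix protein induced by growth factors, drew 813, 4163 and 7853 reads in control replicates 1 to 3 and 1232, 1 and 1127 reads in cKO replicates 1 to 3, and its relative Ccn2 225, 1243 and 4000 against 2245, 0 and 1094. Crim1, a membrane protein that binds BMPs, was at 31.3 ± 15.5 CPM in controls and 185 ± 236 CPM in cKO libraries, or 48.6 CPM without cKO replicate 2 (SD, n = 3 each), without overlap.

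Downstream of the receptors, 0 of 14 substrates and adaptors, 0 of 18 genes of PI3K, AKT and FOXO and 0 of 12 genes of the mTOR complexes passed. Grb2, the adaptor that links receptors to RAS, drew 1137, 633 and 843 reads in control replicates 1 to 3 and 946, 0 and 1314 reads in cKO replicates 1 to 3. Shc1 had 1513, 945 and 5654 against 1305, 1 and 1279, and Crk 2254, 2370 and 2901 against 1929, 0 and 2175. Akt1, the kinase activated by PI3K, was at 237 ± 29.4 CPM in controls and 329 ± 42.4 CPM in cKO libraries, and Gsk3b, a kinase that AKT inhibits, at 103 ± 24.5 and 277 ± 79.9 CPM (SD, n = 3 each). Neither Akt1 nor Gsk3b overlapped between the groups, and neither passed (adjusted p = 0.9999 for each, edgeR's quasi-likelihood test).

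Of the mTOR genes, Rheb, the small GTPase that activates the complex, was at 748 ± 87.0 CPM in controls and 608 ± 167 CPM in cKO libraries. Mlst8, a subunit of both complexes, had 1711, 1223 and 1355 counts against 1086, 0 and 714, and the translation repressor gene Eif4ebp2 1270, 1311 and 2251 against 1681, 5 and 1319. FOXO-responsive genes, which FOXO factors induce when insulin and IGF signals are low, passed in 0 of 9 cases. Gadd45a, a stress response gene of that list, was at 89.6 ± 44.1 CPM in controls and 27.0 ± 7.65 CPM in cKO libraries (SD, n = 3 each) and Cdkn1b, a cell cycle inhibitor, at 182 ± 75.6 and 102 ± 92.5 CPM. Neither Gadd45a nor the mTOR gene Mlst8 overlapped between the groups, both lower in cKO libraries. Sesn3, a sestrin gene, had 1052, 373 and 1175 counts against 869, 0 and 889.

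Genes of mannose 6-phosphate sorting, the route that IGF2R serves, passed in 0 of 9 cases. M6pr, the smaller receptor of the same route, drew 725, 618 and 1496 reads in control replicates 1 to 3 and 204, 0 and 645 reads in cKO replicates 1 to 3, so that in CPM the groups overlapped. The lysosomal enzyme genes Ctsb and Hexa had 995, 795 and 2102 against 569, 0 and 971 counts and 1264, 1094 and 1495 against 1924, 1 and 1296. Proteins that bind Igf2 messenger RNA passed in 0 of 3 cases: Igf2bp1 drew 0, 60 and 772 reads in control replicates 1 to 3 and 0, 0 and 128 reads in cKO replicates 1 to 3, Igf2bp2 had 286, 161 and 305 against 157, 0 and 208, and Igf2bp3 had 580, 419 and 1165 against 985, 1 and 797.

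Genes whose profile over the 5 deeper libraries lay closest to a member were found among 6652 genes by the root mean square difference of centred log2(CPM + 1), for the 6 members with at least 20 counts in each. Igfbp2 was closest to Mto1 (0.056) and Eif4e2 (0.074), Igfbp3 to Prkag2 (0.066) and Lmnb1 (0.087), and Igfbp7 to Tmem178 (0.091) and Slc37a3 (0.102). Igfbp4 was closest to Camta2 (0.165) and Zmiz2 (0.189), and Igf1r to Nvl (0.215) and Yipf1 (0.222). Igfbp5 was closest to Golph3l (0.443) and Slc25a25 (0.509). The measure is not scaled to the spread of a gene, and Igfbp5 was the most uneven of the abundant binding proteins among controls. How close the nearest of so many genes lie for genes other than the members was not worked out. The shallow library, which was not used to find them, differed among the pairs: Igfbp4 was at 612 CPM there, Camta2 at 572 and Zmiz2 at 0. Tmem178 and Slc37a3 were at 0 where Igfbp7 was at 7884 CPM, and Yipf1 was at 593 CPM where Igf1r was at 0.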

How the data were processed

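Each of 6 libraries has a deposited table of raw counts, which the authors made with featureCounts 2.0.0 on exons summed by gene identifier (GRCm39, Ensembl release 104), per the file headers. The command names no strand or multi-mapping option. Libraries were made with a 3′ tag kit, per the labels' protocols; the submitters' processing notes also list STAR, FastQC and DESeq2 but not what each did. Separate pools of mice are the replicates.

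Symbols came from a name table (52083 of 55416 identifiers). CPM used all counts of a library. The fit used edgeR 4.0.16 (R 4.3.3): filterByExpr, TMM, robust glmQLFit and glmQLFTest, two-sided, no covariate, Benjamini-Hochberg adjustment over all 12833 genes kept. Standard errors are the fold change divided by the root of F. Alternatives were other scalings and filters, DESeq2 1.42.0, limma-voom 3.58.1, a replicate block and leaving out each library; scalings without cKO replicate 2, counts of members and level classes were added after seeing the data. The members and lists were chosen with earlier results of these data known. Named besides the members are Ift88, the 3 genes of each pathway list and 2 of each marker list (some given only in sums) with the highest mean CPM in the deeper libraries (at least 5000000 counts), markers at 0 throughout, and the 2 nearest genes by profile, except 2 genes that are not reported here; Polr2b and the genes of list counts were named after their values were seen. Figures used matplotlib 3.10.9.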

Additional observations from a re-analysis of the deposited data

How the results depend on the processing

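The count of genes past the threshold, 2 (1 higher, 1 lower) with all libraries under edgeR and TMM, was 16 (14 higher, 2 lower) under RLE scaling, 0 under upper-quartile scaling (with 1152 at an unadjusted p under 0.05), 5 by DESeq2, 8 by limma-voom, 23 without a filter and 1 under RLE or upper-quartile scaling without the shallow library. Leaving out single libraries gave 1 to 7. The median log2 fold change of all genes was -0.44 under TMM, -0.28 under RLE and -0.01 under upper-quartile scaling. The replicate numbers could not be shown to pair the samples (correlations of deviations 0.079, 0.051 and 0.011, and 5 of 6 samples correlated best with their own number); with the number as a replicate block 1 gene passed. No pathway gene passed under any of the 15 alternatives. Members past the threshold were 0 to 1 when single libraries were left out and 0 under the other alternatives. The 1 was Igfbp7 without cKO replicate 1, where 7 of 14251 genes passed. That fit kept the shallow cKO replicate 2, without which the log2 fold change of Igfbp7 was 0.06, so nothing is read from it.

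Igfbp4, Igfbp6 and Igf2r kept the sign of their fold change under 15 of 15 alternatives, Igfbp2 under 14 (2.21 under upper-quartile scaling), Igfbp7 under 14 (-0.03 under upper-quartile scaling without the shallow library) and Igf1 under 13 of 14 (it could not be fitted with a filter at 5 CPM). For Igfbp3, Igfbp5, Igf1r and Insr it was 12, 11, 12 and 13 of 15. Sizes moved most where libraries without a read are compared: Igf1 was at 5.10 by limma-voom and 9.95 without control replicate 3, Igfbp6 at 5.87 and Igf2r at -4.61 under the replicate block, which also put Igfbp7 at 1.29, and Insr at 2.30 by limma-voom. Igfbp4 was at 2.83 under RLE scaling and 2.82 by DESeq2. Depth limits what cKO replicate 2 can show: by counting error alone, levels under 5.28 CPM could not be told from 0 there. Of 2081 genes with a mean of at least 100 CPM in the deeper libraries, 30.2% also had no count in it. A 0 in that library therefore does not bound a level at 5.28 CPM.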
